A study of Mus musculus with 6 samples.

Results

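The 76 genes described here are the kinesin genes, the centromere protein genes and a set of genes that drive or mark mitosis. They were taken by symbol from both bulk RNA-seq gene count tables: 38 symbols beginning with *Kif*, 20 *Cenp* symbols of the form *Cenp* plus 1 letter, and 18 genes given by name. The tables together list 16279 genes. Kinesins are motor proteins that move along microtubules. Some of them build and drive the mitotic spindle and are made mainly in dividing cells, whereas others carry vesicles, organelles and RNA through the cytoplasm. Centromere proteins assemble the kinetochore, the structure that couples each chromosome to the spindle, and the spindle assembly checkpoint holds the cell before anaphase until every kinetochore is attached. Embryonic stem cells divide rapidly, and transcripts of this machinery peak in G2 and M phase.

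The 6 libraries came from male F1 cells of a C57BL/6 x CAST/EiJ background, 3 from mouse embryonic stem cells (mESCs) and 3 from cardiac precursor cell cultures (CPCCs). The mESCs were single-cell-derived clones from 3 blastocysts, grown without feeders in 2i medium with LIF. The CPCCs were made from those clones through embryoid bodies with ascorbic acid and passaged in medium with EGF and FGF2, and by the study's account they are a mixture of cell types. No transgene or sort is described for the bulk libraries, and a library could not be traced to its clone. The libraries keep the names of their table columns: mESCs are S01 to S03 and CPCCs S04 to S06.

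The libraries held between 6442639 and 11436062 counts. Levels are given in CPM, counts scaled to a common library size after TMM normalization. All 8 pluripotency markers examined were lower in CPCCs, with sums of 5304 to 5568 CPM in mESCs and 122 to 286 CPM in CPCCs. The 10 mesenchymal markers summed to 10.8 to 18.6 CPM in mESCs and 13044 to 22591 CPM in CPCCs. The 12 cardiac precursor markers summed to 13.3 to 21.0 CPM in mESCs and 207 to 351 CPM in CPCCs, where *Nkx2-5* was at 0 in S05 and *Tbx5* was not listed. Of the 5 tested, *Fst* and *Tnnt2* were higher in CPCCs and 3 did not pass, and 6 were listed only for CPCCs. *Fst* alone was at 157, 131 and 133 CPM in S04, S05 and S06. Of 12 neuronal markers, 4 of 9 tested were higher in CPCCs and the sums were 501 to 516 CPM in mESCs and 802 to 1068 CPM in CPCCs. The sum of 8 ciliated cell markers stayed at or below 5.39 CPM in every library. Library S04, the deepest, stood apart from S05 and S06 for the genes described here. Counts of the mitotic genes as a whole and of the mitotic kinesins are therefore also given without it. The same holds for single genes whose call depends on it, whereas counts of the other classes are given with S04 only. In bulk libraries, fewer cells of a type and less RNA per cell cannot be told apart.

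Of the 76 genes, 74 were listed for both cell types, 73 had enough counts to be tested, 40 were lower in CPCCs, 15 were higher and 18 did not pass. The test was edgeR's quasi-likelihood test at an adjusted p under 0.05 over 12471 genes, of which 29.7% were called lower and 31.7% higher, 61.4% in all. On the log2 scale, the fold change of CPCCs over mESCs had a median of -0.90 over the 73 genes and of 0.03 over all genes tested. Each log2 fold change below is given with its standard error (SE). *Kif6* and *Kif27* were listed only for CPCCs, where S04, S05 and S06 held 5, 7 and 8 counts of the former and 5, 6 and 3 of the latter, and *Kif9* had 12 or fewer counts in every library. These 3 genes are at or near the floor of 3 counts per library and no fold is given for them. The lower and the higher genes were divided by function. Among the 51 genes of the mitotic machinery 39 were lower, 1 was higher and 11 did not pass, with a median log2 fold change of -1.34, whereas among the 14 transport kinesins none was lower, 9 were higher and 5 did not pass.

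*Cdk1* and its cyclins were all lower in CPCCs. *Cdk1*, the kinase that drives entry into mitosis (chromosome 10, 69336635 to 69352913, minus strand, mm10), was at 402, 428 and 426 CPM in S01, S02 and S03 and at 70.3, 148 and 181 CPM in S04, S05 and S06. It was 3.15-fold lower in CPCCs (log2 fold change -1.65 with SE 0.30, adjusted p = 0.00138). Every CPCC library lay below every mESC library, and S04 lay well below both other CPCC libraries. *Ccnb1*, the main mitotic cyclin, was at 439, 412 and 599 CPM in mESCs and at 89.6, 131 and 175 CPM in CPCCs (log2 fold change -1.88 with SE 0.26, adjusted p = 0.000294). *Ccnb2*, the second B-type cyclin, was at 234, 235 and 314 CPM and 34.0, 78.8 and 86.7 CPM (log2 fold change -1.97 with SE 0.33, adjusted p = 0.000789). Both cyclin B genes were therefore separated between the cell types with no overlap. *Ccna2*, the cyclin of S and G2 phase, was at 438, 452 and 488 CPM and 145, 270.0 and 323 CPM, the smallest difference of the 4 (log2 fold change -0.90 with SE 0.26, adjusted p = 0.0153), and without S03 its adjusted p was 0.0532.

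All 6 spindle checkpoint genes were lower in CPCCs, with a median log2 fold change of -1.50, and none overlapped between cell types. Of all genes tested, 29.7% were called lower, and for 34.5% every CPCC library lay below every mESC library. *Bub1b*, which encodes the checkpoint protein BUBR1, was at 228, 229.6 and 246 CPM in mESCs and at 24.5, 72.0 and 97.1 CPM in CPCCs (log2 fold change -1.86 with SE 0.41, adjusted p = 0.0036). *Ttk*, the kinase at the head of the checkpoint, was at 57.5, 62.1 and 86.3 CPM and 11.1, 16.1 and 37.0 CPM (log2 fold change -1.68 with SE 0.41, adjusted p = 0.00612). *Mad2l1*, the inhibitor of CDC20, was at 297, 266 and 379 CPM and 68.2, 95.9 and 146 CPM (log2 fold change -1.60 with SE 0.28, adjusted p = 0.000992). Each of these 3 genes was at least 3-fold lower in the mean of the CPCCs. *Cdc20*, the activator of the anaphase-promoting complex, was at 131, 135 and 109 CPM and 28.7, 47.9 and 65.6 CPM (log2 fold change -1.40 with SE 0.28, adjusted p = 0.00227). The kinase gene *Bub1* was at 131, 119.9 and 151 CPM and 29.2, 56.3 and 73.2 CPM (log2 fold change -1.34 with SE 0.30, adjusted p = 0.0042). *Bub3*, which brings BUB1 and BUBR1 to the kinetochore, was at 201, 203 and 192 CPM and 100, 134 and 141 CPM and changed least of the 6 (log2 fold change -0.67 with SE 0.17, adjusted p = 0.009).

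Of the 6 mitotic kinases and chromosomal passenger genes, 5 were lower in CPCCs and *Aurkb* did not pass. *Aurka*, the centrosomal Aurora kinase, was at 243, 224 and 245 CPM in mESCs and at 30.5, 75.8 and 83.8 CPM in CPCCs (log2 fold change -1.91 with SE 0.33, adjusted p = 0.00102), and *Tpx2*, its activator on spindle microtubules, was at 358, 356 and 331 CPM and 68.8, 159.6 and 199.6 CPM (log2 fold change -1.29 with SE 0.33, adjusted p = 0.00796). Of the chromosomal passenger complex, *Birc5* (survivin) was at 578, 613 and 529.9 CPM and 71.0, 189.5 and 231 CPM (log2 fold change -1.81 with SE 0.36, adjusted p = 0.0023). The scaffold gene *Incenp* was at 229, 230.5 and 215 CPM and 37.97, 88.2 and 114 CPM (log2 fold change -1.49 with SE 0.34, adjusted p = 0.00433). Both passengers were thus lower in all 3 CPCC libraries. *Aurkb*, the kinase of the same complex, was at 40.8, 54.9 and 58.6 CPM and 10.6, 37.3 and 42.5 CPM, and S06 lay above S01 (log2 fold change -0.77 with SE 0.43, adjusted p = 0.148). *Plk1*, the Polo-like kinase of mitotic entry, was at 68.7, 54.7 and 58.8 CPM and 18.5, 37.6 and 47.6 CPM, with no overlap but an adjusted p close to the threshold (log2 fold change -0.82 with SE 0.31, adjusted p = 0.047). Its adjusted p lay between 0.0502 and 0.138 under 9 of the other settings, among them the fits without S01, S02, S03 or S05.

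*Top2a* and *Mki67* are both read as markers of dividing cells, and they differed here. *Top2a*, the topoisomerase that untangles sister chromatids, was at 772, 755 and 861 CPM in mESCs and at 128, 321 and 412 CPM in CPCCs (log2 fold change -1.47 with SE 0.35, adjusted p = 0.0059). *Mki67*, whose product coats mitotic chromosomes, was at 376, 440.3 and 400.3 CPM and 100.40, 337 and 445 CPM (log2 fold change -0.46 with SE 0.43, adjusted p = 0.367). For *Mki67* the CPCC library S06 lay above all mESC libraries whereas S04 was at 0.248 times the mESC mean. Without S04 its log2 fold change was -0.04 (adjusted p = 0.835), whereas that of *Top2a* was -1.10 (adjusted p = 3.73e-05).

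**Figure D1:**
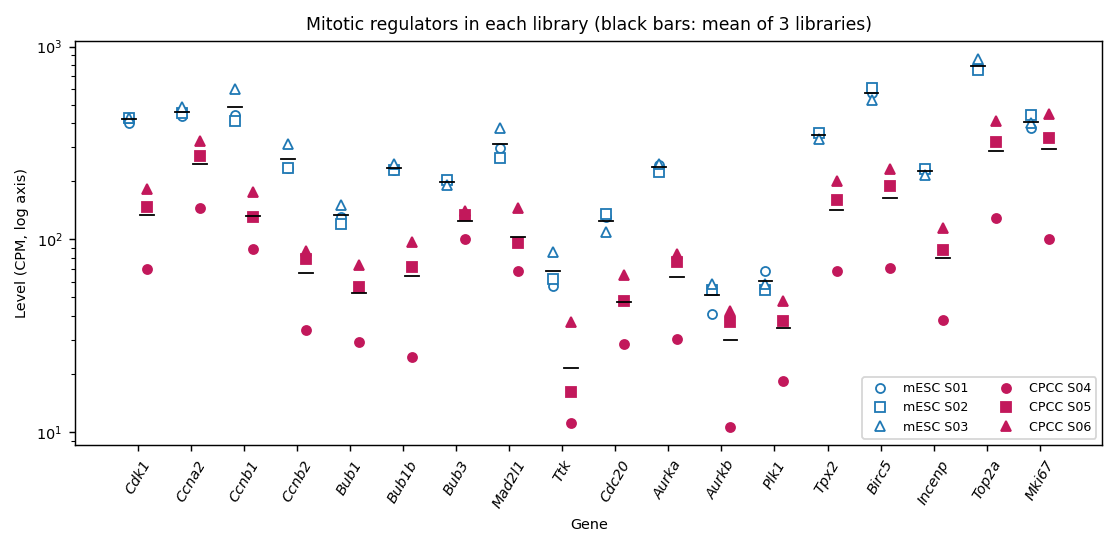
Level in CPM (log axis) of the 18 mitotic regulators taken by name, in each of the 3 mESC libraries (open symbols) and 3 CPCC libraries (filled symbols), with black bars at the mean of each cell type. The CPCC symbols lie below the mESC symbols for all genes but *Aurkb* and *Mki67*, and the filled circle of S04 is the lowest of the 6 libraries for every gene.

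Most of the centromere protein genes were lower in CPCCs. Of 19 *Cenp* genes other than the kinesin *Cenpe*, 12 were lower, *Cenpb* was higher and 6 did not pass, with a median log2 fold change of -1.20. *Cenpa*, the histone H3 variant that marks the centromere, was at 410.3, 459 and 399 CPM in S01, S02 and S03 and at 36.7, 137 and 184 CPM in S04, S05 and S06 (log2 fold change -1.82 with SE 0.47, adjusted p = 0.00788). *Cenpf*, a large kinetochore protein made in G2 and mitosis, was at 509, 523 and 519 CPM and 70.3, 209 and 282 CPM (log2 fold change -1.47 with SE 0.41, adjusted p = 0.0116). The CPCC libraries of both genes spanned a wide range, with S06 at 5.03 and 4.02 times the level of S04.

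The inner kinetochore proteins form small subcomplexes, and their members did not move by the same amount. In the subcomplex of CENP-H, CENP-I, CENP-K and CENP-M, *Cenpm* fell most of all 73 genes tested, from 192, 209 and 168 CPM to 8.25, 27.4 and 46.8 CPM (log2 fold change -2.79 with SE 0.50, adjusted p = 0.00118). *Cenph* was at 82.3, 75.3 and 52.8 CPM and 7.65, 23.6 and 25.1 CPM (log2 fold change -1.90 with SE 0.40, adjusted p = 0.00305). Its partner *Cenpi* was at 39.4, 44.6 and 57.9 CPM and 29.5, 29.1 and 37.2 CPM, near the threshold (log2 fold change -0.57 with SE 0.22, adjusted p = 0.0462). It lost its call in 4 of the 6 fits that left out a library (without S02, S03, S04 or S05), with adjusted p from 0.0694 to 0.162. *Cenpk* in contrast overlapped between cell types, at 22.3, 17.4 and 31.0 CPM and 12.4, 24.7 and 34.3 CPM (log2 fold change 0.02 with SE 0.38, adjusted p = 0.972), so that within this subcomplex the fitted values ran from -2.79 to 0.02. In the subcomplex of CENP-O, CENP-P, CENP-Q and CENP-U, *Cenpu* was at 52.7, 49.3 and 77.2 CPM and 7.48, 10.9 and 17.4 CPM (log2 fold change -2.33 with SE 0.33, adjusted p = 0.000343). *Cenpp* was at 70.3, 77.4 and 75.9 CPM and 8.45, 17.5 and 19.7 CPM (log2 fold change -2.30 with SE 0.30, adjusted p = 0.000201). Their partners moved less, *Cenpq* with log2 fold change -0.74 with SE 0.26, adjusted p = 0.0344, while *Cenpo* did not pass (log2 fold change -0.63 with SE 0.25, adjusted p = 0.0532). *Cenpq* kept its call in only 1 of those 6 fits, that without S06, and without S04 its log2 fold change was -0.52 (adjusted p = 0.0665), whereas *Cenpo* was called lower without S05 (adjusted p = 0.0271). Part of the exons of *Cenpu* (26.7%), *Cenpo* (19.0%) and *Cenpp* (12.3%) lies opposite to exons of another gene, and whether the counting used strand is not given in the sources used here.

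Both genes of the CENP-L and CENP-N pair were lower (*Cenpl*, log2 fold change -1.20 with SE 0.36, adjusted p = 0.0169, and *Cenpn*, log2 fold change -1.61 with SE 0.34, adjusted p = 0.00304). Of the 4 histone-fold genes *Cenps*, *Cenpt*, *Cenpw* and *Cenpx*, *Cenps* was lower (log2 fold change -1.23 with SE 0.31, adjusted p = 0.00762), and the others had log2 fold changes of -0.39, -0.71 and -0.72 with adjusted p of 0.0609, 0.083 and 0.0798. Leaving out 1 library ended the call of *Cenpl* (without S03, adjusted p = 0.0569) and brought *Cenpw* (without S06, adjusted p = 0.00668) and *Cenpx* (without S05, adjusted p = 0.039) past the threshold. The next 2 genes serve other structures. *Cenpv*, tied to pericentromeric chromatin, was at 89.8, 95.8 and 84.1 CPM and 7.46, 19.0 and 29.1 CPM (log2 fold change -2.28 with SE 0.40, adjusted p = 0.00114). *Cenpj*, a centriole assembly gene, did not pass (log2 fold change -0.56 with SE 0.24, adjusted p = 0.0664). *Cenpb*, which binds a sequence box in centromeric satellite DNA, was the only gene of the mitotic machinery called higher in CPCCs, at 31.4, 38.4 and 32.2 CPM in mESCs and at 37.1, 57.5 and 66.8 CPM in CPCCs (log2 fold change 0.66 with SE 0.24, adjusted p = 0.0396). Its cell types overlapped, since S04 lay below S02, and it kept its call in 1 of the 6 fits that left out a library, that without S04.

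*Cenph* and *Ccnb1* lie near each other on the minus strand of chromosome 13, at 100759674 to 100775900 and 100778739 to 100786487 (mm10), with 2839 bases between them. Both fell by a similar amount, with log2 fold changes of -1.90 and -1.88.

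The mitotic kinesins were lower in CPCCs as a group. Of 14, 11 were called lower, none higher and 3 did not pass, with a median log2 fold change of -1.33, and for all 14 every CPCC library lay below every mESC library. Over all genes tested, 34.5% showed that separation downwards and 35.3% upwards. *Kif2c*, the microtubule depolymerase MCAK, was at 83.4, 61.0 and 69.5 CPM in mESCs and at 10.8, 21.3 and 27.5 CPM in CPCCs (log2 fold change -1.84 with SE 0.32, adjusted p = 0.00103). *Kif20a*, a motor of the central spindle and cytokinesis, was at 163, 196 and 135 CPM and 30.1, 53.4 and 68.9 CPM (log2 fold change -1.70 with SE 0.30, adjusted p = 0.00103), though 29.3% of its exon bases overlap *Cdc23* on the other strand. *Kif20b*, which also acts in cytokinesis, was at 88.7, 102 and 104 CPM and 26.7, 34.4 and 35.3 CPM (log2 fold change -1.61 with SE 0.19, adjusted p = 9.87e-05). These were the 3 largest falls among the mitotic kinesins, each of about 3-fold or more.

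*Kif11*, the motor Eg5 that pushes the spindle poles apart, was at 101, 106 and 127 CPM and 21.7, 63.7 and 77.7 CPM (log2 fold change -1.03 with SE 0.39, adjusted p = 0.0435), and it lost its call without S01, S02, S03 or S05 (adjusted p from 0.0684 to 0.127). *Kif23*, the kinesin of the centralspindlin complex, was at 111, 113 and 178 CPM and 29.7, 57.2 and 60.5 CPM (log2 fold change -1.44 with SE 0.30, adjusted p = 0.00284). *Kif18a* and *Kif18b*, which limit the growth of microtubule plus ends, had log2 fold changes of -1.34 and -1.45, and *Kif18b* was the less variable, at 97.0, 105 and 112 CPM and 33.4, 38.2 and 43.3 CPM. *Kif14*, *Kif15* and the chromosome-binding *Kif22* had log2 fold changes of -1.56, -1.21 and -1.32. *Cenpe*, the kinetochore motor that moves chromosomes to the metaphase plate, was at 139, 155 and 141 CPM and 41.6, 104 and 109.6 CPM and did not pass (log2 fold change -0.77 with SE 0.32, adjusted p = 0.0629). The chromokinesin *Kif4* was at 94.5, 101 and 88.8 CPM and 18.0, 78.3 and 77.0 CPM (log2 fold change -0.72 with SE 0.45, adjusted p = 0.19), so that S05 and S06 were close to the mESC range and S04 was far below it. Without S04 the log2 fold change was -0.42 (adjusted p = 0.0231) for *Cenpe* and -0.27 (adjusted p = 0.143) for *Kif4*, and *Cenpe* also passed without S06 (adjusted p = 0.0344). *Kifc1*, a minus-end motor that focuses spindle poles, fell from 12.0, 13.4 and 10.2 CPM to 3.98, 3.03 and 7.32 CPM (log2 fold change -1.31 with SE 0.40, adjusted p = 0.0176), with adjusted p of 0.0626 without S02 and 0.0604 without S05. *Kifc5b* is a near-identical copy of it, so reads may be split between the pair, and their summed level was 14.2 ± 2.11 CPM in mESCs and 5.90 ± 2.35 CPM in CPCCs (mean ± SD, n = 3 each).

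The transport kinesins went the other way. Of 14, 9 were higher in CPCCs and none was lower, and the median log2 fold change was 1.11. *Kif1a*, a motor for synaptic and dense-core vesicles in neurons, rose most, from 2.78, 2.65 and 0 CPM in S01, S02 and S03 to 195, 149 and 126 CPM in S04, S05 and S06 (log2 fold change 6.43 with SE 0.62, adjusted p = 3.77e-05). *Kif5c*, a kinesin-1 heavy chain known mainly from neurons, was at 2.16, 3.82 and 2.19 CPM and 94.0, 97.9 and 93.3 CPM (log2 fold change 5.11 with SE 0.26, adjusted p = 1.88e-06). The mESC levels of these 2 genes rest on at most 26 counts per library, and *Kif1a* had 0 counts in S03. *Kif1c* was at 11.43, 14.1 and 18.0 CPM and 100.50, 80.8 and 73.5 CPM (log2 fold change 2.55 with SE 0.23, adjusted p = 2.78e-05). *Kif1b*, which carries mitochondria and synaptic vesicle precursors, was at 54.2, 53.5 and 67.3 CPM and 328, 288 and 306 CPM (log2 fold change 2.40 with SE 0.17, adjusted p = 7.16e-06).

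The 3 kinesin-2 genes measured, whose products carry cargo into cilia and along the cytoplasm, rose. *Kif3a* was at 46.8, 61.3 and 63.3 CPM and 164, 149 and 146 CPM (log2 fold change 1.42 with SE 0.18, adjusted p = 0.000161). Its usual partner *Kif3b* was at 51.9, 46.5 and 41.4 CPM and 85.6, 87.6 and 82.2 CPM (log2 fold change 0.87 with SE 0.17, adjusted p = 0.00182). *Kif3c*, the alternative partner, was at 19.2, 24.1 and 18.6 CPM and 61.4, 69.8 and 55.5 CPM (log2 fold change 1.59 with SE 0.20, adjusted p = 0.000166), though 35.3% of its exon bases overlap a gene on the other strand. All 3 were separated between the cell types, and S04 did not stand apart from S05 and S06 in any of them. *Kif13a* (log2 fold change 0.89 with SE 0.20, adjusted p = 0.00433) and the minus-end motor *Kifc3* (log2 fold change 1.32 with SE 0.29, adjusted p = 0.00353) also rose.

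*Kif5b*, the ubiquitous kinesin-1 heavy chain, was at 367, 344 and 467 CPM in mESCs and at 801, 433 and 408 CPM in CPCCs and did not pass (log2 fold change 0.48 with SE 0.27, adjusted p = 0.147). Only S04 was far above the mESC libraries, and without it the log2 fold change was 0.11 (adjusted p = 0.533). The other kinesin-1 gene, *Kif5a*, was low in both cell types, at 6.02, 5.88 and 4.68 CPM and 1.59, 3.52 and 5.04 CPM (log2 fold change -0.71 with SE 0.50, adjusted p = 0.243). *Kif16b*, an early endosome motor, was at 21.9, 22.7 and 28.5 CPM and 21.5, 16.0 and 13.1 CPM (log2 fold change -0.53 with SE 0.26, adjusted p = 0.104). Without S04 it was called lower (log2 fold change -0.73 with SE 0.25, adjusted p = 0.0243), the only transport kinesin so called in any fit that left out 1 library. *Kif13b* had the smallest log2 fold change of the transport kinesins, at 0.772, 1.91 and 1.61 CPM and 2.39, 1.58 and 1.49 CPM with overlap (log2 fold change 0.34 with SE 0.60, adjusted p = 0.637). *Kifc2* stayed at 3.24 CPM or less in every library and did not pass.

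**Figure D2:**
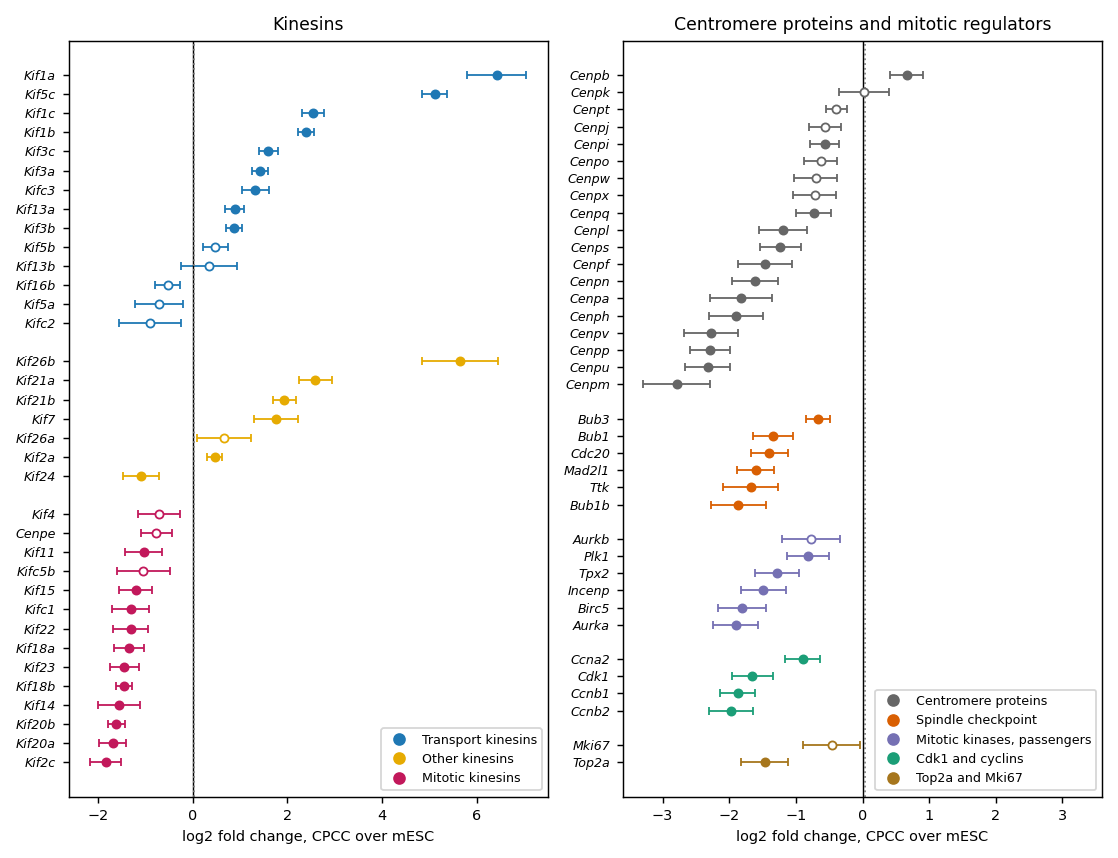
Log2 fold change (CPCC over mESC) with its standard error for the 35 tested kinesins (left) and the 37 other tested genes (right) by class, filled where the adjusted p was under 0.05 and open where it was not. The solid line marks 0 and the dotted line the median of all genes tested, 0.03. All 14 mitotic kinesins lie left of 0, and the 9 filled transport kinesins lie right of it.

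Summed over each class, the levels of the 2 kinds of kinesin moved in opposite directions. The 14 mitotic kinesins summed to 1123, 1189 and 1217 CPM in S01, S02 and S03 and to 262, 559 and 644 CPM in S04, S05 and S06. The 14 transport kinesins summed to 616, 618 and 750.0 CPM and to 1927, 1439 and 1377 CPM. The mean of the mitotic sum was 2.41-fold lower in CPCCs and that of the transport sum 2.39-fold higher, and without S04 these were 1.95-fold and 2.13-fold. Without *Kif5b* the transport sum was 3.85-fold higher in CPCCs, with means of 269 ± 17.8 and 1034 ± 81.8 CPM (SD, n = 3 each). To set the classes against each other, levels were taken per kilobase of exon. On this scale the ratio of mitotic to transport kinesins was 2.25, 2.32 and 1.94 for mESC libraries, whereas for CPCCs it was 0.177, 0.469 and 0.570. The mitotic sum was thus the larger in every mESC library and the smaller in every CPCC library. *Kif5b* alone held 54.0% ± 3.82 (SD, n = 3) of the transport sum per kilobase in mESCs and 32.5% ± 6.83 in CPCCs.

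**Figure D3:**
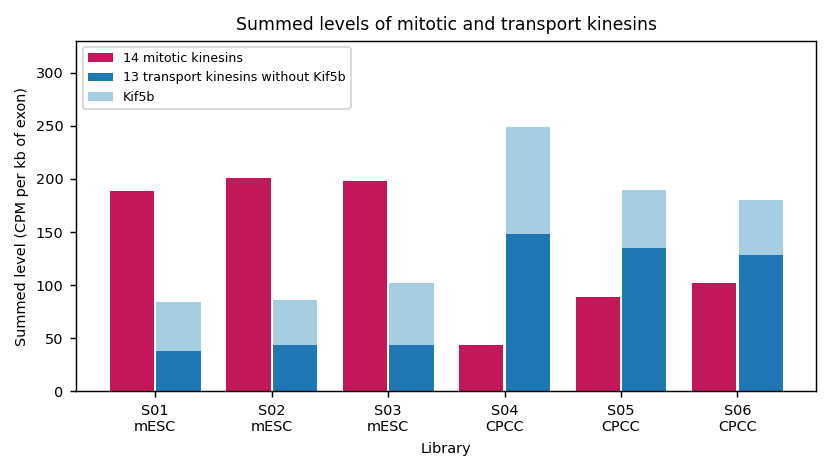
Summed level in CPM per kilobase of exon of the mitotic kinesins and of the transport kinesins in each library, with the part of *Kif5b* in light blue. The mitotic bar is the taller in S01, S02 and S03 and the shorter in S04, S05 and S06.

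Per kilobase of exon, mitotic kinesins made up 64.2% ± 2.07 of the summed level of the 38 kinesins (with *Cenpe*, without *Kif1bp*) in mESCs and 24.7% ± 9.76 in CPCCs (SD, n = 3 each). *Kif5b* had the highest mean level per kilobase in both cell types, 49.2 ± 8.17 CPM per kb in mESCs and 68.6 ± 27.6 CPM per kb in CPCCs. In mESCs it was followed by 6 mitotic kinesins, led by *Kif20a* at 37.9 ± 7.07 CPM per kb and *Kif18b* at 29.4 ± 2.17 CPM per kb. *Kif5b* and *Kif20a* were not separated beyond their SDs, and in S02 *Kif20a* was the higher, at 45.2 against 43.1 CPM per kb. The next 4, *Kif4*, *Kif23*, *Cenpe* and *Kif2c*, lay between 16.3 and 17.2 CPM per kb and were not separated beyond their SDs. Nor were they separated from the transport kinesin *Kif3a* in place 8, at 15.9 ± 2.52 CPM per kb. In CPCCs *Kif5b* was followed by *Kif3a* at 42.7 ± 2.67 CPM per kb, then by *Kif2a*, *Kif1b* and *Kif1a* between 16.8 and 18.0 CPM per kb, which again were not separated beyond their SDs. The first mitotic kinesin in that order was *Kif20a*, in place 8, at 11.7 ± 4.5 CPM per kb, and it was not separated beyond its SD from *Kif1c*, *Kif18b* and *Kif4* in the next places. *Kif1a* moved from place 34 in mESCs to place 5 in CPCCs and *Kif5c* from place 32 to place 7.

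**Figure D4:**
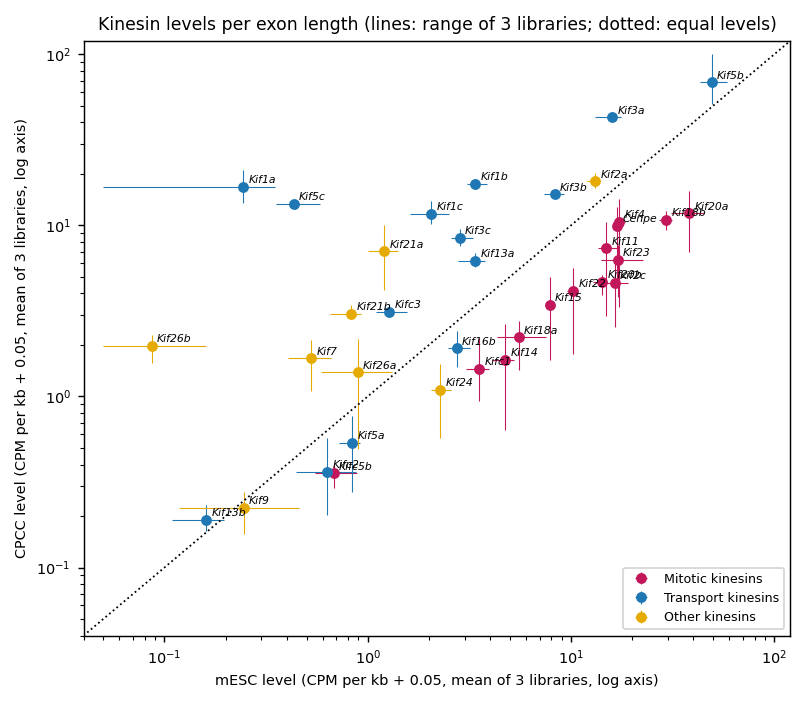
Mean level in CPCCs against mean level in mESCs for 36 kinesins listed in both cell types, in CPM per kilobase of exon plus 0.05 on log axes, with lines spanning the lowest to the highest of 3 libraries and a dotted line of equal levels. Mitotic kinesins lie under the line, most transport kinesins above it, with *Kif1a*, *Kif5c* and *Kif26b* farthest from it.

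The other kinesins were mostly higher in CPCCs. Of 7 tested, 5 were higher, *Kif24* was lower and *Kif26a* did not pass. *Kif26b*, an atypical kinesin, was counted 0, 0 and 11 times in mESC libraries and stood at 22.4, 33.0 and 29.5 CPM in S04, S05 and S06 (log2 fold change 5.66 with SE 0.81, adjusted p = 0.000327), a change whose size rests on 1 mESC library with counts. *Kif21a* was at 6.18, 8.83 and 7.46 CPM and 26.9, 44.4 and 64.5 CPM (log2 fold change 2.59 with SE 0.35, adjusted p = 0.000227). *Kif21b* was at 10.7, 7.35 and 10.5 CPM and 33.9, 34.0 and 41.0 CPM (log2 fold change 1.93 with SE 0.24, adjusted p = 0.000166), and both of these motors are known for restraining microtubule growth. *Kif7*, a ciliary kinesin of Hedgehog signalling, was at 2.16, 1.62 and 2.78 CPM and 4.67, 8.12 and 9.51 CPM (log2 fold change 1.76 with SE 0.46, adjusted p = 0.00932). *Kif2a*, a depolymerase close to *Kif2c* that acts in dividing cells and in neurons, rose slightly, from 88.2, 76.3 and 86.3 CPM to 129, 112 and 105 CPM (log2 fold change 0.46 with SE 0.16, adjusted p = 0.0339). Its relative *Kif2c* fell 3.59-fold, so these 2 kinesin-13 genes moved in opposite directions. *Kif24*, the third kinesin-13 gene listed, which acts at centrioles, fell from 20.2, 17.4 and 15.9 CPM to 4.17, 8.97 and 11.9 CPM (log2 fold change -1.10 with SE 0.38, adjusted p = 0.0315). Without S01, S02, S03 or S05 neither *Kif2a* (adjusted p from 0.0616 to 0.130) nor *Kif24* (adjusted p from 0.0577 to 0.097) passed, whereas *Kif26a* was called higher without S04 (log2 fold change 1.09, adjusted p = 0.037). *Kif1bp* matched the symbol rule but encodes a kinesin-binding protein, and it did not pass (log2 fold change 0.33 with SE 0.21, adjusted p = 0.194).

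Library S04 was lower than S05 and S06 in most of the mitotic genes. For 48 of the 51 genes of the mitotic machinery S04 was the lowest CPCC library, against 43.1% of all genes tested, and for 47 it was the lowest of all 6 libraries, against 28.9%. The ratio of S04 to the mean of S05 and S06 had a median of 0.434 over these genes (from 0.222 to 0.941) and of 0.968 over all genes tested. S04 was at less than 0.5 times that mean for 32 of the 51 genes and for 1488 of all 12471 genes tested. For the transport kinesins the median ratio was 1.11. S04 also had the lowest pluripotency sum (122 CPM, against 224 and 286 CPM in S05 and S06) and the highest cardiac precursor sum (351 CPM, against 207 and 224 CPM), mesenchymal sum (22591 CPM, against 19336 and 13044 CPM) and neuronal sum (1068 CPM, against 802 and 838 CPM). By gene, S04 was the highest CPCC library for 9 of 11 cardiac precursor, 4 of 10 mesenchymal and 2 of 12 neuronal markers. It was the lowest for 9 of the neuronal markers, whose sum was led by *Stmn2* and *Tubb3*. The part of these markers in the difference of S04 was not tested. Without S04, 38 of the 51 genes were lower in CPCCs and 1 higher, with a median log2 fold change of -1.09. In S05 and S06 taken alone, both libraries lay below every mESC library for 46 of the 51 genes, as they did for 4738 of all 12471 genes tested. The 51 genes together took 0.852% ± 0.0299 of the counts in mESCs (SD, n = 3), and 0.172%, 0.368% and 0.456% in S04, S05 and S06.

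**Figure D5:**
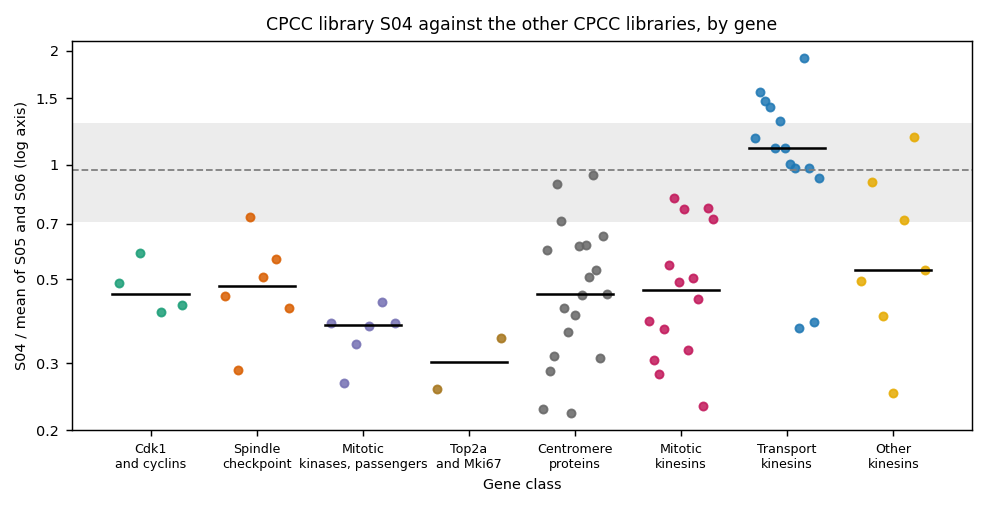
Ratio of the level in CPCC library S04 to the mean of S05 and S06 (log axis) for each tested gene, by class, with black bars at class medians. The dashed line and grey band mark the median and the quartiles of all genes tested. Class medians of the mitotic genes lie between 0.303 and 0.479, and that of the transport kinesins at 1.11.

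The start regions of these genes were examined for sequence the symbols do not encode. Promoters of many genes of G2 and M phase carry a CHR element (TTTGAA) close to the start together with CCAAT boxes, the sites of the DREAM and MuvB complexes and of NF-Y. RefSeq promoters on GRCm38.p6, from 250 bases before to 50 after the start, were at hand for 65 of the 76 genes, and both strands were searched. TTTGAA was present in 26 of 46 mitotic genes with a promoter (56.5%), in 11 of 13 mitotic kinesins (84.6%) and in 1 of 9 transport kinesins, *Kif1a*. It was present in 13.9% of 9965 tested genes with a promoter. CCAAT was present in 33 of the 46 mitotic genes (71.7%), in 3 of the 9 transport kinesins and in 43.8% of the tested genes. Both motifs together occurred in 23 of the 46 (50%), in none of the 9 and in 5.99% of the tested genes. Among 9 other kinesins with a promoter, 2 hold both motifs, *Kif27* and *Kif26b*, the latter called higher in CPCCs. Not all genes that fell hold TTTGAA: of the 19 centromere protein genes 5 do, namely *Cenpa*, *Cenpf*, *Cenpl*, *Cenpn* and *Cenpw*, and it is in neither *Cenpm* nor *Cenpu*. *Mki67* and *Kif4*, which did not pass the test, have both motifs. These matches are a description of the letters, not of binding.

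The windows from 100 bases before to 25 bases after the start are shown for 4 mitotic kinesins that fell, for *Cdc20*, *Cdk1* and *Ccnb2*, and for 4 transport kinesins that rose. They were picked as windows with both motifs and with neither, and serve as examples only. Capitals mark TTTGAA or TTCAAA (the CHR element on either strand) and CCAAT or ATTGG (the CCAAT box on either strand), which do not overlap each other in these windows. All are given 5′ to 3′ on the strand of the gene, from RefSeq on GRCm38.p6.
*Kif11* (chr19:37376282-37376406, plus strand): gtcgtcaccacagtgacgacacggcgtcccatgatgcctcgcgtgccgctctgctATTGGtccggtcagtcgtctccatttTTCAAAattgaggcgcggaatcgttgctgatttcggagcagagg
*Kif18b* (chr11:102925100-102925224, minus strand): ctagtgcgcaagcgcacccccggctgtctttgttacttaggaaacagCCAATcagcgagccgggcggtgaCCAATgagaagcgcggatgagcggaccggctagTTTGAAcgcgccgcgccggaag
*Kif22* (chr7:127042396-127042520, minus strand): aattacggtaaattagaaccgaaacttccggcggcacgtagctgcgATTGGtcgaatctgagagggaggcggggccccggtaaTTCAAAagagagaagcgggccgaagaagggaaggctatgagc
*Kif23* (chr9:61946775-61946899, minus strand): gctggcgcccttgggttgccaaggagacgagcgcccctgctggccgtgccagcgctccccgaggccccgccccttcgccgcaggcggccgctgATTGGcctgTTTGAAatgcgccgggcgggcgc
*Cdc20* (chr4:118437319-118437443, minus strand): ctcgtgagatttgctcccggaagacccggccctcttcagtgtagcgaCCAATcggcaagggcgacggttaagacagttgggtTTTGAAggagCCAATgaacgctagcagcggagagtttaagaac
*Cdk1* (chr10:69352888-69353012, minus strand): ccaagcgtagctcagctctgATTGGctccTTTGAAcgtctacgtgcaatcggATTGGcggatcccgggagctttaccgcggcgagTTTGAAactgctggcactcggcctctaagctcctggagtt
*Ccnb2* (chr9:70421530-70421654, minus strand): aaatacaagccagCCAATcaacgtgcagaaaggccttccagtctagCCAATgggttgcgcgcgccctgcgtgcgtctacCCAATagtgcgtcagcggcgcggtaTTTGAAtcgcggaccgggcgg
*Kif1b* (chr4:149307674-149307798, minus strand): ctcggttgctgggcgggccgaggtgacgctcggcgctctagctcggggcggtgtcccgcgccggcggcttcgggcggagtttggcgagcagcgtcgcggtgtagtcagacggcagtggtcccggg
*Kif1c* (chr11:70700448-70700572, plus strand): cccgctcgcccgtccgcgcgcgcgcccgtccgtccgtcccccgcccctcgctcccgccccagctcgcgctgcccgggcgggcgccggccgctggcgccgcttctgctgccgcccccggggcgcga
*Kif3c* (chr12:3365032-3365156, plus strand): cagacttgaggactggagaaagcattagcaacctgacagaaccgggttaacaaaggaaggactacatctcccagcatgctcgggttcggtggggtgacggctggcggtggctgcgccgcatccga
*Kif5c* (chr2:49619186-49619310, plus strand): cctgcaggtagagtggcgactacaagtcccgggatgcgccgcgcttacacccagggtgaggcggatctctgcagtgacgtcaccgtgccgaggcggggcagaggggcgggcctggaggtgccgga
In the 7 windows of genes that fell, the first base of the CHR element lies between 71 bases before and 4 bases after the start, and each window has a CCAAT box upstream of a CHR element. None of the 4 transport kinesin windows shown holds either motif. *Kif1b* has 2 RefSeq promoters with different starts, and the window shown is that of the first. The first promoter holds CCAAT upstream of the window shown. Counted from the second start, a CCAAT box would lie inside a window of the same extent. For *Kif1b* the absence of CCAAT therefore depends on the start chosen, whereas neither of its promoters holds TTTGAA.

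Other genes of the same machinery, on lists of subunits chosen by function, were more often lower than higher in CPCCs. Over all genes tested, 29.7% were called lower and 31.7% higher, 61.4% in all. Of 22 condensin and cohesin genes tested, 18 were lower in CPCCs and 2 higher, with a median log2 fold change of -1.05. *Pttg1*, the inhibitor of separase (log2 fold change -2.05, adjusted p = 0.000471), and *Sgo1*, the protector of centromeric cohesion (log2 fold change -1.95, adjusted p = 0.000563), fell most, and the cohesin genes *Stag2* (log2 fold change 0.99, adjusted p = 0.00124) and *Pds5a* (log2 fold change 0.92, adjusted p = 0.00412) rose. Of 24 outer kinetochore and centromere assembly genes, 13 were lower, 2 higher and 9 did not pass, with a median of -0.90. *Spc24*, a subunit of the NDC80 complex (log2 fold change -2.67, adjusted p = 0.000445), and *Oip5*, which helps load CENP-A (log2 fold change -2.02, adjusted p = 0.00105), fell most. *Hjurp*, the chaperone of CENP-A (log2 fold change 1.05, adjusted p = 0.0246), rose although *Cenpa* fell, and so did the kinetochore gene *Zwint* (log2 fold change 0.58, adjusted p = 0.00687). The cell types overlapped for *Hjurp*, since S04 at 18.5 CPM lay below S01 at 19.9 CPM.

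Of 20 spindle and cytokinesis genes, 12 were lower, none higher and 8 did not pass, with a median of -0.73, and *Nusap1*, a spindle bundling protein (log2 fold change -2.07, adjusted p = 0.00358), and the histone kinase gene *Haspin* (log2 fold change -1.39, adjusted p = 0.00923) fell most. Of 25 genes of mitotic entry and exit, 13 were lower, 3 higher and 9 did not pass, with a median of -0.68. *Mybl2*, the MYB factor that activates late cell cycle genes with MuvB, fell from 338 to 30.9 CPM in the mean (log2 fold change -3.46, adjusted p = 0.000422), and *Pkmyt1*, an inhibitory kinase of CDK1, also fell (log2 fold change -2.50, adjusted p = 0.000277). *Cdc16* (log2 fold change 0.98, adjusted p = 0.00115) and *Cdc27* (log2 fold change 0.88, adjusted p = 0.00147), subunits of the anaphase-promoting complex, rose. Of 22 partners of the transport motors, 12 were higher, 2 lower and 8 did not pass, with a median of 0.82. *Kidins220*, a cargo membrane protein of kinesin-1 (log2 fold change 2.92, adjusted p = 1.8e-05), and the lysosomal GTPase gene *Arl8a* (log2 fold change 2.25, adjusted p = 0.000216) rose most, and *Trak1*, a mitochondrial adaptor (log2 fold change -0.56, adjusted p = 0.0254), and *Jakmip1* fell. *Jakmip1* was at 16.7, 11.8 and 24.1 CPM in mESCs and at 0.199, 0.121 and 1.03 CPM in CPCCs (adjusted p = 0.000155), and no fold is given because S04 and S05 lie under the floor of 3 counts.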

How the data were processed

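Per the labels and the study's methods, polyA-selected RNA of 3 mESC and 3 CPCC libraries was made into SMART-Seq v4 cDNA and sequenced. The authors deposited 1 table per cell type of estimated counts per gene, both alleles together and not normalized, on mm10, and their processing notes name STAR 2.7. The counter, its use of strand and its annotation are not given in the sources used here. Each table lists genes with a summed count of at least 10, and library totals lay between 6442639 and 11436062 counts. Counts were rounded to whole numbers, and the 13001 genes in both tables were filtered with filterByExpr, which left 12471. These were fitted with edgeR 4.0.16 (R 4.3.3), TMM normalization and glmQLFit and glmQLFTest on cell type, and p-values were adjusted by Benjamini-Hochberg over all genes tested, with a threshold of 0.05. The standard error is the log2 fold change divided by the square root of F. On simulated counts over 12471 genes for this comparison, 49 of 67 genes changed 2-fold and all 67 changed 4-fold were recovered, with 2 unchanged genes called. Exon lengths for CPM per kb came from GENCODE vM21. The settings tried in place of these were DESeq2 1.42.0, other normalizations, filters and gene sets, a 2-fold threshold, *Kif2a* as a mitotic kinesin, and each library left out. The genes, their classes and the marker and context lists were chosen with earlier results of these data known. Every gene could be named. Values in every library were given for the genes taken by name, for *Cenpa*, *Cenpe* and *Cenpf*, and in each class for the 3 largest changes and the smallest, and for others where the text compares them. Of each context list the 2 largest rises and falls were named.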

Additional observations from a re-analysis of the deposited data

How the results depend on the processing

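The counts of genes lower and higher in CPCCs, the median log2 fold changes of both kinesin classes and their difference were computed under each setting. Of these, the median of the transport kinesins moved by more than the spread between libraries in 1 case, from 1.11 to 1.39 with at least 10 counts in every sample. Leaving out 1 library gave from 33 to 42 genes lower, from 13 to 16 higher, medians from -1.59 to -1.12 for mitotic and from 1.08 to 1.16 for transport kinesins, and differences from -2.67 to -2.24. Of 55 genes called, 45 had the same call and sign in all 6 fits without 1 library, 32 lower and 13 higher. Without S02 or S05, 9 mitotic kinesins were called lower, and without S04 or S06, 12. *Cenpk*, which was not called, changed sign, from 0.02 to -0.053 with genes of either table and missing genes at 3 counts, and it ranged from -0.34 (without S06) to 0.34 (without S04) when 1 library was left out. The cause was not tested. With missing genes at 0 counts the median of all genes tested rose to 0.17, and the other settings moved it by less than 0.1. No paired analysis was possible because the table columns carry no replicate numbers. Depth limits *Kif6*, *Kif9* and *Kif27*, and the size of the rises of *Kif1a*, *Kif5c* and *Kif26b* and of the fall of *Jakmip1*.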
